A study of Mus musculus with 6 samples.

Results

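The genes described here repair DNA or signal its damage: 32 symbols chosen by name, of which 31 had a probe set with a single gene symbol among the 30702 genes so annotated on the array. Rbbp8, a factor of DNA end resection, was not analysed here. Each of the 31 was read by 1 such probe set. The members were picked by symbol and grouped by 9 repair routes; the rule uses no measured value, but earlier results of these data were known when the list was drawn up, so the counts below are not free of selection. The cells were bone marrow stromal cells (BMSCs), adherent precursors of bone, cartilage and marrow fat, taken from the femurs of mice of 3 months (young, 3 arrays) and 18 months (aged, 3 arrays). Cells of both ages were sorted for the surface markers Sca-1 and CD29 and against CD45 and CD11b, then cultured past the first passage, so all values are of expanded cells and not of cells straight from marrow. The labels give no strain, sex, transgene or treatment, and although they name the arrays biological replicates, no label ties an array to an animal. The p-values therefore measure the spread among arrays, which may be technical. In such bulk samples fewer cells that make a transcript and less of it per cell cannot be told apart.

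Cells meet different kinds of DNA damage with different machinery. Breaks through both strands are sensed by the complex of Mre11a, Rad50 and Nbn and are then either copied from the sister chromatid by homologous recombination, which needs Brca1, Brca2 and their partners and works in S and G2 phase, or rejoined directly by end joining, which is begun by the Ku proteins Xrcc5 and Xrcc6. Damaged bases are cut out by base excision repair, bulky lesions by nucleotide excision repair, copying errors by mismatch repair, and crosslinks between the strands by the Fanconi anaemia pathway. The kinases Atm and Atr read the damage and, through Chek1 and Chek2, hold the cell cycle.

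Values are log2 expression values, and a difference is always aged minus young on that scale. A gene was called when limma's test across all 20187 genes gave a Benjamini-Hochberg adjusted p under 0.05. The calls need a reference, because 40.6% of all genes tested passed, 18.4% higher and 22.1% lower in aged cells. Negative control probe sets reached 7.61 at their upper 5% limit (the 95th percentile of their means), so means under 7.61 are called within the control range and get no fold. The 23 antigenomic background probe sets, designed to match no mouse gene, all moved upward with age, by up to 0.29, while the median shift was -0.26 for the negative and -0.15 for the positive control probe sets. Array medians lay between 5.39 and 5.44. Of the sort markers measured, Itgb1 (CD29) fell slightly, from 11.86 in young to 11.76 in aged cells (limma, adjusted p = 0.025), while Ptprc (CD45) read 3.65 and 3.62 and Itgam (CD11b) 5.26 and 5.24. Ly6a (Sca-1) was not analysed here. Of 10 stromal markers 7 rose and 1 fell, and their summed log2 level was 91.52 to 91.98 in young and 98.02 to 98.22 in aged arrays. Among the defining markers of other marrow cells, the summed log2 level of 8 macrophage and monocyte markers lay between 41.93 and 42.18 in young and between 42.40 and 42.62 in aged arrays, and that of 5 T and NK cell markers between 25.83 and 26.63 and between 26.17 and 26.43. Cd14 was the 1 call in these lists and rose by 0.35 within the control range. The summed level of 5 neutrophil markers was 24.44 to 25.68 in young and 26.38 to 26.84 in aged arrays, and Ly6g rose by 0.90. For 5 endothelial markers it was 25.97 to 26.35 and 26.69 to 26.95, and the differences of Kdr and Tek were 0.69 and -0.22, both called. Ly6g, Kdr and Tek lay within the control range. For 4 osteoclast markers it was 27.06 to 27.32 and 28.30 to 28.52, and Ctsk rose from 9.07 to 10.04. The ages did not overlap in the summed levels of the stromal, macrophage, neutrophil, endothelial and osteoclast lists. As single genes, 51.3% of all genes tested did not overlap. Too dim for the test were 5 macrophage, 2 neutrophil and 2 endothelial markers. The tested markers of these lists all lay within the control range in both ages. Among osteoclast markers Ctsk was the only call. The sums of 4 B cell markers were 21.89 to 22.61 and 22.40 to 22.59, those of 2 erythroid markers 10.94 to 11.35 and 11.02 to 11.19, and no B cell or erythroid marker was called by limma, also at an unadjusted p under 0.05. The part of these markers in the results below was not tested.

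The repair members were more often lower than higher in aged cells. Of the 31 members 14 fell, 3 rose and 14 did not pass. The 14 that fell are 45.2% of the members, where 22.1% of all genes tested fell. The differences of the 31 members ran from -0.57 for Fancm to 0.48 for Xrcc5, with a median of -0.11, beside 0.01 over all genes tested. In 24 of the 31 the values of the 2 ages did not overlap, beside 51.3% of all genes. Of these, 17 were lower in aged cells (26.9% of all genes) and 7 higher (24.4%). The count of higher ones was near the share of all genes. When the test asked for a difference beyond 0.3, Fancm, Lig4, Atr and Rad50 fell and Xrcc5 rose, 5 of 31 members beside 9.83% of all genes (4.04% lower and 5.79% higher). Among the calls, 8 falls and 1 rise were larger than the largest antigenomic shift of 0.29, and 8 calls were smaller. Of all genes called, 50.1% differed by more than that shift. The antigenomic shifts were all upward, so they give no measure for falls. The negative control probe sets shifted by a median of -0.26, with a range of -2.36 to 1.86. The falls of Fanca, Blm, Xrcc6, Chek1 and Xpc, -0.31 to -0.24, lay near that median. Both means lay within the control range for 17 members, 6 of the 14 that fell among them.

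**Figure D1:**
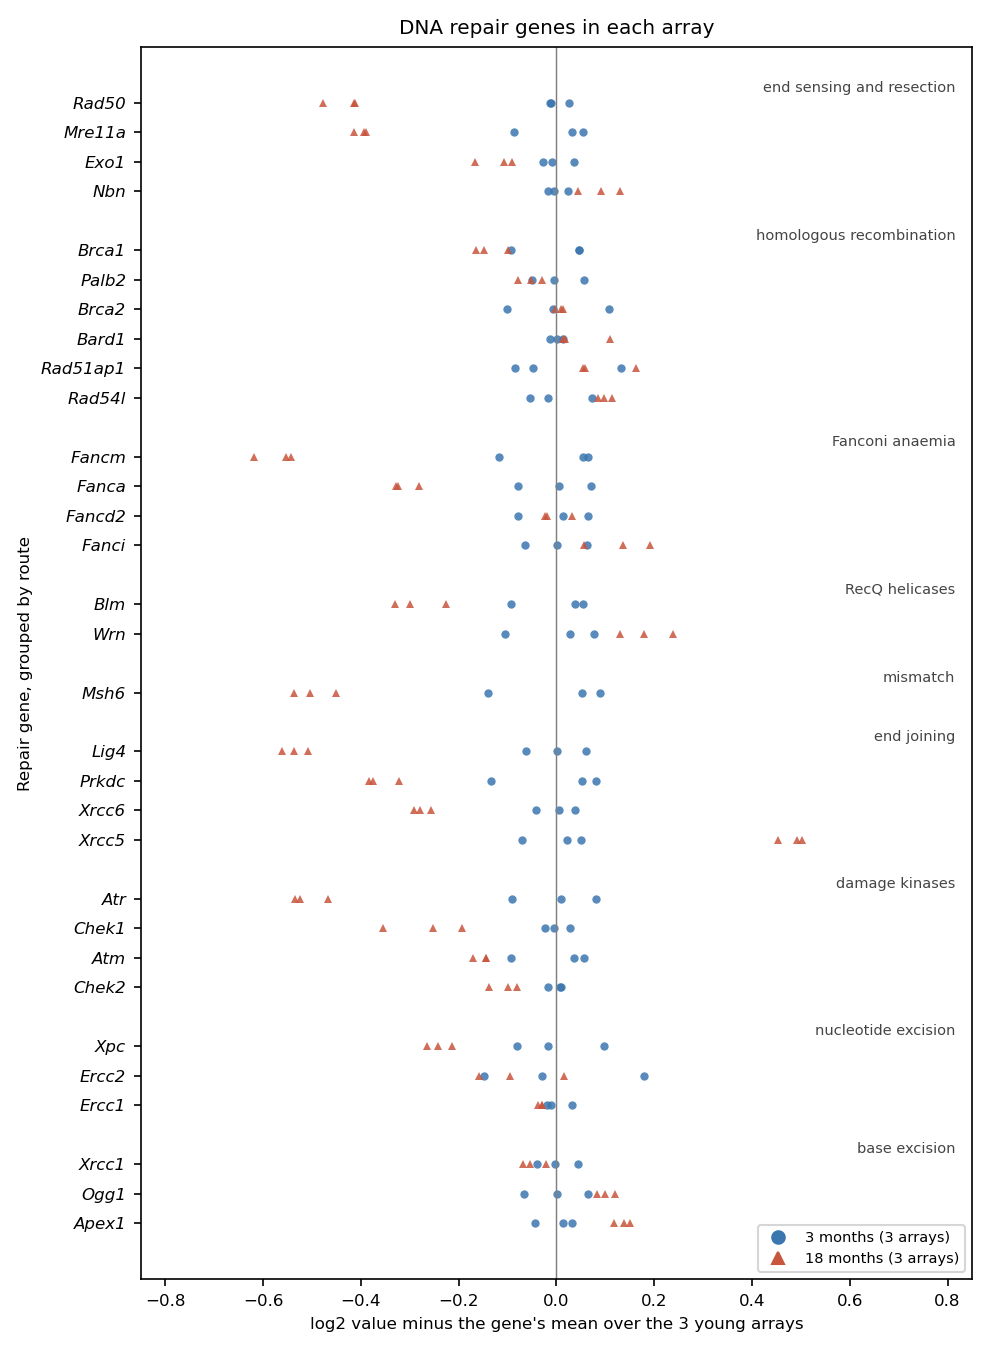
Each row is a repair gene and each point an array, drawn as the log2 value minus the gene's mean over the 3 young arrays (circles, 3 months; triangles, 18 months). The damage kinases lie to the left in all aged arrays, the homologous recombination genes straddle 0, and Xrcc5 stands 0.48 to the right.

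The young arrays were not equally placed. Young replicate 3 was the lowest of the young arrays in 26 of the 31 members, including all 14 that fell and all 3 that rose, and in 42.9% of all genes tested. Over the members its median deviation from the young mean was -0.06. Without young replicate 3, 15 members fell and 2 rose. The median SD over the members was 0.06 between young and 0.03 between aged arrays.

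The members that moved furthest were Fancm, Lig4, Atr and Msh6, which fell, and Xrcc5, which rose while its partner Xrcc6 fell. The bases before the start of these genes are shown because genes of S phase and of DNA replication are known to carry E2F motifs there, and proliferating cells also use CCAAT and CHR elements. Each line gives the 250 bases before the most upstream start in the RefSeq promoter table, 5′ to 3′ on the gene's strand. Capitals mark every match to an E2F-type motif (either TTCCCGC or TTCGCGC or TTGGCGC or TTGCCGC), to CCAAT or to the CHR letters TTTGAA, on either strand.
Fancm (GRCm38.p6 chr12:65075353-65075602, + strand): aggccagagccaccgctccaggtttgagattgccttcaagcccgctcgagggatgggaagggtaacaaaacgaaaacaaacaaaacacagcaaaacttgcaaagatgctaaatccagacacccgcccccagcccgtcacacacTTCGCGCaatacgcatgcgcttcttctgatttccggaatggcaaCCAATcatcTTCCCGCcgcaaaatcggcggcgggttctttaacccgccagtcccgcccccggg
Lig4 (GRCm38.p6 chr8:9977681-9977930, - strand): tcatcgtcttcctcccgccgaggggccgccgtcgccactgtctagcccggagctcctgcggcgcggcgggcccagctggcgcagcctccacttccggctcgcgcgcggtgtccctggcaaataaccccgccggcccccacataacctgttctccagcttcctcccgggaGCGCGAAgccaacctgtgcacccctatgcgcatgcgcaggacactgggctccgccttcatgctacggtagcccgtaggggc
Atr (GRCm38.p6 chr9:95857347-95857596, + strand): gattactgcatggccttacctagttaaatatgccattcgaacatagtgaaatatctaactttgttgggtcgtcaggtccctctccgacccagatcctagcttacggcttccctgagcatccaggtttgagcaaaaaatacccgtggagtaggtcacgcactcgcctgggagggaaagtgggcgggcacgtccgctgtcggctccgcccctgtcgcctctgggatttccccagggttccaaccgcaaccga
Msh6 (GRCm38.p6 chr17:87974800-87975049, + strand): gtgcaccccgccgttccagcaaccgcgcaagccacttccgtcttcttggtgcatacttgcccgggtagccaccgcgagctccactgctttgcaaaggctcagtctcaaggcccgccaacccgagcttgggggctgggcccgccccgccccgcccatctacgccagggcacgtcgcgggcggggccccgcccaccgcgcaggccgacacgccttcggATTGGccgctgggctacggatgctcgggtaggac
Xrcc5 (GRCm38.p6 chr1:72307171-72307420, + strand): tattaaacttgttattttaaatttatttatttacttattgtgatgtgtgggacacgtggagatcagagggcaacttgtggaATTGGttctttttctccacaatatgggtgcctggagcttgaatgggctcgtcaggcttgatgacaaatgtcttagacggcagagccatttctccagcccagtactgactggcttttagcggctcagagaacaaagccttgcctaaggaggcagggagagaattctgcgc
Xrcc6 (GRCm38.p6 chr15:82016119-82016368, + strand): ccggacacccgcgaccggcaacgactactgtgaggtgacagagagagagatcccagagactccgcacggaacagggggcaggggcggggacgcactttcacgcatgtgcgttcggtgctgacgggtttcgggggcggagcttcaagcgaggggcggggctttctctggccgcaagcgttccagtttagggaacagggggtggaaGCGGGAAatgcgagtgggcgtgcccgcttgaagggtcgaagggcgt

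Fancm held E2F-type matches that begin 107 and 54 bases before the start with a CCAAT between them, at 63 bases. Lig4 had an E2F-type match at 81 bases and Xrcc6 at 46 bases. In Msh6 the only match was a CCAAT on the other strand, 34 bases before the start, and in Xrcc5 the same at 169 bases. The window of Atr held none of these letters. Of the 31 members 24 had an entry in the table. An E2F-type match was present in 10 of 24 (41.7%), beside 12.5% of the 12693 tested genes with an entry and 8.03% of all 27025 genes of the table. CCAAT was present in 15 of 24 (62.5%), beside 35.4% and 34.5%, and the CHR letters in 1 of 24 (Bard1), beside 11.0% and 16.3%. Members that fell and members that did not pass held E2F-type letters in 5 of 11 and 4 of 11 promoters, and the 2 members that rose with an entry, Xrcc5 and Apex1, in 1. An E2F-type match on the other strand that ends in CCAA can overlap a CCAAT, as in Ercc2. A match is a description of letters and was not tested as a site.

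Among the genes that sense and trim broken ends, Rad50 and Mre11a of the break sensor fell together, while Nbn did not pass. Rad50, the long coiled-coil subunit that tethers ends, read 9.68, 9.64 and 9.64 in the young arrays and 9.24, 9.23 and 9.17 in the aged. All aged values lay below all young values, and the gene was 1.35-fold lower (difference -0.43 ± 0.03 SE, n = 3 per age, limma, adjusted p = 1.01e-05). Mre11a, the nuclease of the complex, read 8.74, 8.72 and 8.60 in young and 8.29, 8.30 and 8.27 in aged cells, 1.32-fold lower (limma, adjusted p = 0.000112). Nbn, which recruits Atm to the complex, read 8.80, 8.83 and 8.79 in young and 8.90, 8.94 and 8.85 in aged cells. Its groups did not overlap either, but its difference of 0.09 (95% interval 0.01 to 0.17) did not pass (limma, adjusted p = 0.0808). Taken within each array, Nbn minus Rad50 shifted by 0.52 ± 0.02 (SE, n = 3 per age) and Nbn minus Mre11a by 0.49 ± 0.04, with no overlap between ages, while Rad50 minus Mre11a shifted by -0.03 ± 0.04 with overlap. Exo1, an exonuclease that resects ends, was at 6.87 ± 0.03 and 6.75 ± 0.04 (SD, n = 3), within the control range, and did not pass (limma, adjusted p = 0.0777).

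Shifts of this kind were computed for 10 pairs of members, chosen with their values known. An exact two-sided permutation test of 3 arrays against 3 cannot give a p below 0.1. It gave 0.1 for 9 pairs and 0.6 for Rad50 and Mre11a, or 0.111 and 0.6 after Benjamini-Hochberg adjustment over the 10 pairs.

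In end joining all 4 members were called, 3 lower and 1 higher, beside 22.1% lower and 18.4% higher of all genes tested. Xrcc5, the larger Ku subunit that grips broken ends, read 8.74, 8.71 and 8.62 in young and 9.18, 9.19 and 9.14 in aged cells. It was 1.40-fold higher (difference 0.48 ± 0.04 SE, n = 3 per age, limma, adjusted p = 1.96e-05), and 5.71% of all genes tested had a higher difference. Xrcc6, the smaller Ku subunit, went the other way, from 8.56, 8.59 and 8.51 to 8.30, 8.26 and 8.27, and was 1.21-fold lower (limma, adjusted p = 0.000332). Within an array, Xrcc5 minus Xrcc6 shifted by 0.76 ± 0.03 (SE, n = 3 per age), the largest shift of the 10 pairs, and the aged arrays lay 0.73 to 0.79 above the young mean. The Ku proteins act as a pair, and the ratio of their signals changed 1.69-fold between the ages.

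Lig4, the ligase that seals the ends, read 7.43, 7.49 and 7.37 in young and 6.90, 6.87 and 6.92 in aged cells, all within the control range, with a difference of -0.54 ± 0.05 (SE, n = 3 per age, limma, adjusted p = 3.3e-05). Only 2.42% of all genes tested had a lower difference. Prkdc, the catalytic kinase subunit that Ku recruits, fell from 7.23 ± 0.12 to 6.87 ± 0.03 (SD, n = 3, limma, adjusted p = 0.00178), also within the control range.

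**Figure D2:**
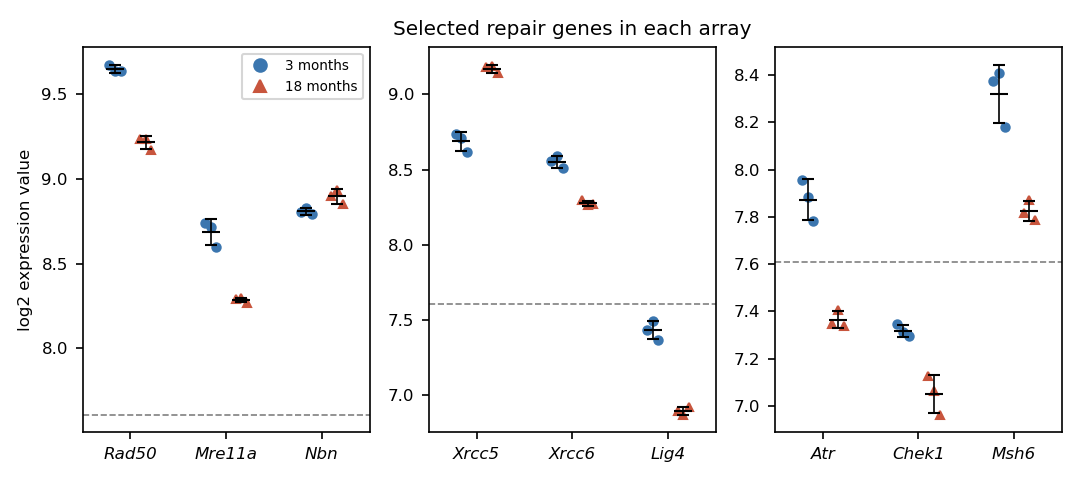
Log2 expression values of 9 repair genes in each array (circles, 3 months; triangles, 18 months), with the mean and SD of 3 arrays in black and the upper limit of the negative control range, 7.61, as a dashed line. Rad50 and Mre11a lie lower in all aged arrays while Nbn does not, and Xrcc5 and Xrcc6 move in opposite directions.

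All 4 damage kinases were called lower, beside 22.1% of all genes tested, but the calls of Atm and Chek2 depended on the processing. Atr, which responds to stalled replication forks, read 7.95, 7.88 and 7.78 in young and 7.35, 7.40 and 7.34 in aged cells, where it came within the control range (difference -0.51 ± 0.05 SE, n = 3 per age, limma, adjusted p = 7.51e-05). Chek1, the kinase Atr activates, went from 7.34, 7.31 and 7.29 to 7.12, 7.06 and 6.96, within that range (limma, adjusted p = 0.00349). Atm, which responds to breaks, was 1.11-fold lower, from 8.36, 8.34 and 8.21 to 8.16, 8.16 and 8.13 (limma, adjusted p = 0.0298). Chek2, the kinase Atm activates, was 1.08-fold lower, from 8.32, 8.32 and 8.29 to 8.21, 8.23 and 8.17 (limma, adjusted p = 0.0428). The ages did not overlap in any of these kinases. Within each array, Atr minus Atm shifted by -0.36 ± 0.02 and Chek1 minus Chek2 by -0.16 ± 0.04 (SE, n = 3 per age). The falls of Atm and Chek2, -0.15 and -0.11, were no larger than the median shift of the positive controls at 2 decimals, and were not called after median centring. Chek2 also did not pass without the filter on dim genes (adjusted p = 0.0623, limma) or without the intensity trend (adjusted p = 0.0501, limma), and its adjusted p ran up to 0.196 over its alternatives but the minimum difference. Atm also did not pass without any 1 of aged replicates 1, 2 and 3 and young replicates 1 and 2, nor Chek2 without any 1 of aged replicates 1, 2 and 3 and young replicate 2, with differences of -0.20 to -0.12 and of -0.12 to -0.09 over all 6 such fits.

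No homologous recombination member passed limma's test, where 40.6% of all genes tested did (1 member, Brca1, did at an unadjusted p under 0.05). All 6 lay within the control range in both ages. Brca1, which steers breaks toward recombination, read 6.75, 6.75 and 6.61 in young and 6.56, 6.61 and 6.54 in aged cells (difference -0.14, 95% interval -0.27 to -0.01, limma, adjusted p = 0.0900). Without young replicate 3 its difference was -0.18 and passed (limma, adjusted p = 0.0141, range over the 6 fits that leave out 1 array 0.0141 to 0.253). Bard1, the partner of Brca1 in its ubiquitin ligase, read 6.69 ± 0.01 and 6.73 ± 0.05 (SD, n = 3), with an interval of -0.07 to 0.16. For Palb2 and Brca2, which act together after Brca1, the intervals were -0.18 to 0.07 and -0.13 to 0.15, and the ages overlapped in both. Rad51ap1 and Rad54l, which promote invasion of the sister strand, had intervals of -0.08 to 0.26 and -0.02 to 0.22. As signals, these intervals leave out falls as large as those of Rad50, Lig4 or Atr. All 6 signals were dim and within the control range, so the intervals cannot tell whether the transcripts fell.

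The Fanconi anaemia members divided between those that fell and those that did not pass. Fancm, the translocase that recognises blocked forks, read 6.82, 6.81 and 6.64 in young and 6.20, 6.21 and 6.13 in aged cells, the lowest difference of all members (-0.57 ± 0.06 SE, n = 3 per age, limma, adjusted p = 0.000111). Fanca, of the core ubiquitin ligase complex, fell from 6.99 ± 0.08 to 6.68 ± 0.03 (SD, n = 3, limma, adjusted p = 0.00155). Fancd2 and Fanci, the clamp that this complex ubiquitinates, did not pass, with intervals of -0.13 to 0.12 and -0.02 to 0.27. All 4 lay within the control range in both ages.

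The RecQ helicases, which unwind recombination and replication intermediates, moved in opposite directions. Blm read 7.49, 7.51 and 7.36 in young and 7.15, 7.23 and 7.12 in aged cells (difference -0.29 ± 0.06 SE, n = 3 per age, limma, adjusted p = 0.00302). Wrn, the gene mutated in Werner syndrome, a disorder of early ageing, read 7.17, 7.12 and 6.99 in young and 7.27, 7.33 and 7.23 in aged cells (difference 0.18 ± 0.06 SE, limma, adjusted p = 0.0374). Both genes lay within the control range. The rise of Wrn was smaller than the largest antigenomic shift, which was also upward, and it did not pass after quantile normalization, without the filter on dim genes or without any 1 of aged replicates 1, 2 and 3 and young replicates 2 and 3 (differences of 0.13 to 0.22 over all 6 fits that leave out 1 array). Within each array, Wrn minus Blm shifted by 0.47 ± 0.02 (SE, n = 3 per age).

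Among the members for damage within 1 strand, Msh6 moved most. Msh6, which finds mispaired bases, read 8.37, 8.41 and 8.18 in young and 7.82, 7.87 and 7.79 in aged cells, 1.41-fold lower (difference -0.50 ± 0.06 SE, n = 3 per age, limma, adjusted p = 0.000235). Xpc, which finds distorted DNA for nucleotide excision, read 8.61, 8.50 and 8.43 in young and 8.27, 8.25 and 8.30 in aged cells, 1.18-fold lower (limma, adjusted p = 0.00426). Ercc1, part of the nuclease that cuts beside the lesion, was at 7.68 ± 0.03 and 7.65 ± 0.00 (SD, n = 3), near the edge of the control range, with an interval of -0.12 to 0.06. Ercc2, a helicase of the same route, was dim at 5.92 ± 0.17 and 5.84 ± 0.09 and did not pass. A further probe set lists Ercc2 together with a microRNA gene and was not used.

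In base excision 1 of 3 members rose, beside 18.4% of all genes tested, and none fell (limma, also at an unadjusted p under 0.05). Apex1, the nuclease that cuts at sites that have lost their base, read 10.05, 10.03 and 9.97 in young and 10.13, 10.15 and 10.17 in aged cells, a rise of 0.14 ± 0.03 (SE, n = 3 per age, limma, adjusted p = 0.00748). It was smaller than the largest antigenomic shift. Ogg1, which removes oxidised guanine, was at 7.72 ± 0.06 and 7.82 ± 0.02 (SD, n = 3) and did not pass (limma, adjusted p = 0.115). Without young replicate 1 its difference was 0.13 and passed. Xrcc1, the scaffold on which breaks in 1 strand are sealed, was at 8.30 ± 0.04 and 8.25 ± 0.02, with an interval of -0.14 to 0.04.

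**Figure D3:**
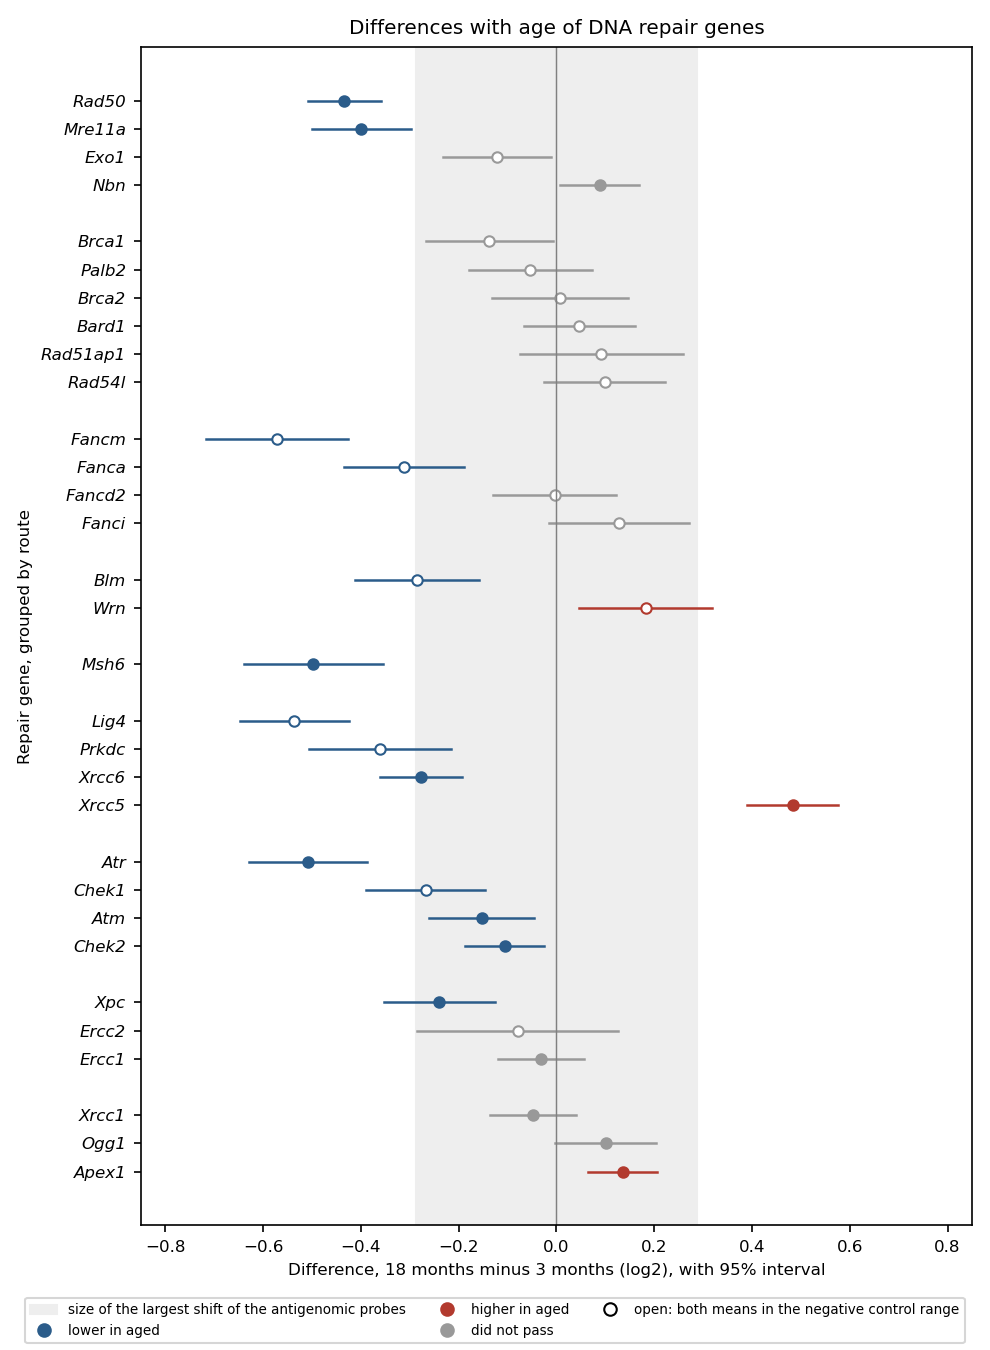
Difference between the ages for each repair gene (18 months minus 3 months, log2) with its 95% interval from limma, blue where lower, red where higher and grey where the gene did not pass. Open circles have both means within the negative control range. The grey band spans the size of the largest antigenomic shift, 0.29, to either side of 0, though all antigenomic shifts were upward.

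The wider repair machinery gave a mixed picture. Of 107 further repair genes on a list made for this comparison, 96 were measured; 26 fell, 18 rose and 52 did not pass, and the median over them was -0.01. That is 27.1% lower and 18.8% higher, beside 22.1% and 18.4% of all genes tested. Both means lay within the control range for 49 of the 96, among them 7 that fell and 8 that rose. In damage signalling 5 of 13 fell and 3 rose. Rad17 and Rad1, which load and form the clamp that helps activate Atr, fell by 0.33 and 0.33, and Etaa1, another activator of Atr, fell by 0.47. Wee1, the kinase that blocks entry into mitosis, rose by 0.52, from 8.67 to 9.19 (limma, adjusted p = 1.13e-05). In nucleotide excision 6 of 11 fell and 1 rose, among them Gtf2h1, a subunit of the helicase complex that opens the lesion (from 10.52 to 10.03), Ddb1 (from 12.34 to 12.10), Ercc6 and Rad23b, which fell by 0.40 and 0.15.

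End joining outside the members held 4 rises and 2 falls among 9 (44.4% and 22.2%), beside 18.4% and 22.1% of all genes tested. Mad2l2, of the shieldin complex that protects ends from resection, rose from 8.49 to 8.96 and Polm, a polymerase that fills ends, rose by 0.43. Rif1 and Trp53bp1, which act with shieldin, fell by 0.50 and 0.37. In homologous recombination 4 of 17 rose (23.5%) and 3 fell (17.6%), near those shares of all genes tested. Mus81, a nuclease of joint molecules, and Rad51c and Rad51b, which act in strand exchange, rose by 0.59, 0.55 and 0.35, from means within the control range, and Topbp1, an activator of Atr, fell by 0.28.

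In the Fanconi anaemia route 3 of 12 rose (Faap100, Fancf and Ube2t, by 0.29, 0.21 and 0.26) and Wdr48, the partner of the deubiquitinase Usp1, fell by 0.37. Of 6 further genes around the RecQ helicases, Recql4 fell from 8.94 to 8.42 and Recql rose by 0.19. In base excision 3 of 15 fell (20.0%) and 2 rose (13.3%), near the shares of all genes tested. None of these called genes had both means above the control range. Polb, the polymerase that fills the gap, fell by 0.44, Ung, which removes uracil, by 0.29, and Fen1, a flap nuclease, by 0.30, while Mpg, which removes alkylated bases, rose by 0.28. Msh3 alone of 4 mismatch genes was called and fell by 0.26. Both means of Msh3 and of Ube2t lay within the control range. Of 9 genes of direct reversal and translesion synthesis 4 fell (44.4%) and none rose (limma, 1 was higher at an unadjusted p under 0.05). The polymerases Polh, Polk and Rev1 fell by 0.26, 0.25 and 0.24, and Alkbh3 by 0.18.

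**Figure D4:**
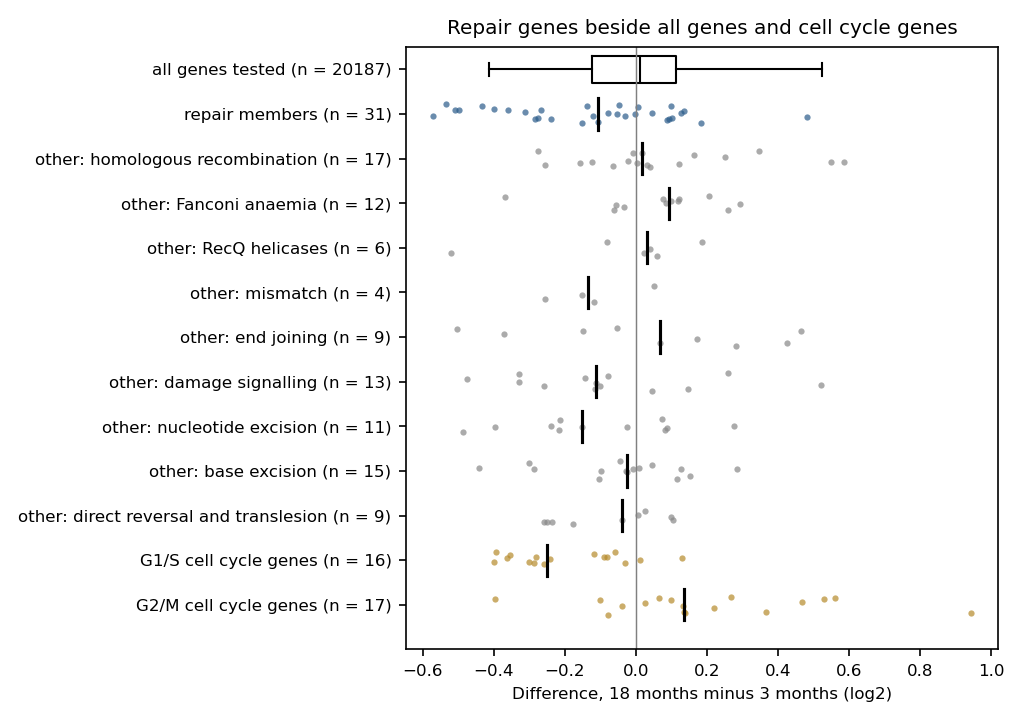
Difference between the ages (18 months minus 3 months, log2) for every measured gene of each list, 1 point a gene with the list's median as a black bar, beside a box plot of all 20187 genes tested (box, quartiles; whiskers, 5th to 95th percentile). The members' median is -0.11 and that of the G1/S genes -0.25. The further repair genes are drawn by route, with medians from -0.15 (nucleotide excision) to 0.09 (Fanconi anaemia).

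Many repair genes are made mainly in cycling cells, so cell cycle genes are given beside them. Of 16 measured genes of the G1/S transition 9 fell (56.25%), beside 22.1% of all genes tested. None rose (limma, 1 was higher at an unadjusted p under 0.05), and the median difference was -0.25. Mcm4 and Mcm3 of the replicative helicase fell by 0.30 and 0.35, Pcna, the polymerase clamp, by 0.24, and Cdt1, which loads the helicase, by 0.40. Their summed log2 level was 133.70 to 135.95 in young and 131.67 to 131.94 in aged arrays. Of 17 measured G2/M genes 10 rose (58.8%) and 1 fell (5.88%), beside 18.4% and 22.1% of all genes tested. Their median was 0.13, and their summed level was 135.95 to 137.83 in young and 140.14 to 140.54 in aged arrays. Ccnb2 and Ccna2, the mitotic and S phase cyclins, rose by 0.94 and 0.53, and Tpx2 and Nusap1 of the mitotic spindle by 0.37 and 0.56. The part of these shifts in the repair results was not tested.

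Genes that p53 switches on after damage moved both ways. Of 18 measured targets 6 rose (33.3%) and 7 fell (38.9%), beside 18.4% and 22.1% of all genes tested. Their median was 0.05. Sesn1, a stress-induced regulator of growth signalling, rose by 1.48, from 7.35 to 8.83, and the death receptor gene Fas rose by 1.11. Plk2 and Gadd45a, which restrain the cell cycle under stress, fell from 11.46 to 10.75 and from 10.81 to 10.23.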

How the data were processed

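Expression was measured on 6 Affymetrix arrays of sorted, cultured mouse marrow stromal cells. The authors' deposited values are log2 expression values, 1 per array and probe set. MAS5 is named in the submitters' processing notes; background correction, scaling and summarisation are not stated further. Values were used as deposited, without further scaling, and carry no detection calls. Symbols were updated through the RefSeq table of assembly GRCm38.p6: of 32750 annotated probe sets 31259 led to 1 gene and 1491 to several; 31257 of the former matched the table. Genes whose mean was under 5.40, the median over transcript clusters, were left out of the test, which kept 20187 of 30702 genes and all 31 members. Aged and young arrays were compared with limma 3.58.1 in R 4.3.3 (lmFit, eBayes with an intensity trend) and Benjamini-Hochberg adjustment over all genes tested. The test was checked on simulated data drawn independently for each gene and array. That check does not cover deviations that many genes of 1 array share. Intervals are 95% intervals of that fit, SDs are of 3 arrays, the SE of a gene's difference is limma's moderated SE, and the SE of a shift between paired genes comes from the SDs of the arrays alone. The number of arrays limits the precision. Every member was described; of each further list, at most 4 called genes with the smallest p were named. The members and the further lists were drawn up with earlier results of these data known. Figures were drawn with matplotlib 3.10.9. Same-numbered young and aged arrays did not deviate together (correlations of deviations -0.05, 0.07 and 0.02), so the numbers were not taken to pair them. No culture or hybridisation batch is labelled, and a batch that followed age cannot be told apart from it.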

Additional observations from a re-analysis of the deposited data

How the results depend on the processing

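Quantile normalization, median centring, no filter, a filter at the 70th percentile, the mean of a gene's probe sets, eBayes without trend or with robust estimation, a replicate block and leaving out each array were tried. Under these, 12 of the 14 members that fell and 2 of the 3 that rose (Xrcc5 and Apex1) kept their call wherever they were tested; Fancm was too dim for the stricter filter. Atm, Chek2 and Wrn did not keep theirs. Testing against a difference of 0.3 left 4 members lower and 1 higher, 3 of the further repair genes lower and 4 higher, and 816 of all genes lower and 1169 higher, by its own construction. With the replicate block 13 members fell and 3 rose, Chek2 being the one lost (adjusted p = 0.0914, limma). With 1 array left out, 12 to 15 members fell and 2 to 4 rose. After quantile normalization 15 members fell, Exo1 joining them, and 3 rose, with Nbn (adjusted p = 0.0434, limma; 0.0434 to 0.307 over its alternatives but the minimum difference) in place of Wrn. Without a trend Exo1 was called and Chek2 was not. The sign of members that did not pass turned for Brca2 (-0.0394 after quantile normalization, -0.0443 to 0.0609 with 1 array left out), Fancd2 (0.0159 after median centring, -0.0436 to 0.0287) and Ercc2 (-0.15 to 0.00999); the cause was not tested. Signals within the negative control range limit 17 members.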
